A study of Mus musculus with 16 samples.

Results

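Prostaglandins are local lipid signals made from arachidonic acid. Cytosolic phospholipase A2 frees arachidonate from membranes, the cyclooxygenases COX-1 and COX-2 turn it into prostaglandin H2, and terminal synthases convert that intermediate to prostaglandin E2, D2 or prostacyclin. The products act on G protein-coupled receptors at the cell surface and are inactivated by dehydrogenation and reduction. In skeletal muscle the pathway is known for its part in myoblast fusion, regeneration and the response to exercise.

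The 10 genes described here cover each of these steps. They are Pla2g4a for arachidonate release, Ptgs1 and Ptgs2 for the cyclooxygenases, Ptges, Ptges2, Ptgis and Ptgds for terminal synthesis, Ptger4 for reception, and Hpgd and Ptgr1 for breakdown. They were chosen by mouse symbol from the 48432 gene identifiers of the deposited table, with their levels in stimulated and control cells already known. Their EPS to control differences are therefore given as a description, without a test of single members. All 10 were found in the table, and 8 passed the filter on low counts. Each of these 8 had at least 3.45 CPM (fragments of a gene per M fragments of the library, after scaling between libraries; M is 10 to the power of 6) in every library. Ptges and Hpgd did not pass the filter.

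The cells were C2C12, an established mouse myoblast line, at passage 4 to 8, grown into contractile myotubes over 5 days of differentiation. One group of 4 libraries came from cells given electrical pulse stimulation (EPS), a current passed through the culture as 6 ms pulses at 1 Hz and 2.75 V/mm, with polarity switched at 0.5 Hz. The other 4 libraries came from control cells that were not stimulated. How long the cells were stimulated is not stated in the sources. Each library was sequenced on 2 lanes, so the 16 deposited samples are 8 libraries, and the labels do not state whether each library was its own culture. P-values thus reflect the spread among these 8 libraries alone, and that spread may be technical.

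EPS libraries held 14.7 to 20.7 M fragments. Control libraries 1, 3 and 4 held 12.6 to 20.7 M, whereas control replicate 2 held 0.354 M. A gene with 0 fragments may still have a level worth up to 3 fragments. That limit, which covers counting error only, was 8.52 CPM in control replicate 2 and 0.138 to 0.241 CPM elsewhere. In a principal component analysis of log2 CPM, control replicate 2 stood alone on the first component (68.4% of the variance), at 209 against -36.2 to -22.5 for the other 7 libraries. EPS replicates 1 and 2 stood apart on the second component (20.2% of the variance), at 46.4 and 88.1, from the other libraries at -45.2 to 1.63. All 8 myotube markers examined, among them Myog, Ckm and Myh3, were detected. Their summed level was 10196 to 13807 CPM in EPS and 16379 to 18770 CPM in control libraries, without overlap, and all 8 had negative log2 fold changes (median -0.70). Of the 8, 0 were past an adjusted p of 0.05 by edgeR, 6 at an unadjusted p under 0.05, 4 past it by DESeq2, 0 by limma and 6 with the replicate number as a block. Fibroblast markers summed to 56.4 to 197 CPM in EPS and 83 to 261 CPM in control libraries, mostly Dcn. Of these 4, 2 were tested, with 0 past the threshold by edgeR, 1 at an unadjusted p under 0.05, 1 past it by DESeq2, 0 by limma and 2 with the block. With the block Pdgfra was higher (log2 fold change 0.89) and Dcn was lower (-0.64, edgeR adjusted p = 0.0219). Without it Dcn had a log2 fold change of -0.47 (edgeR adjusted p = 0.646). Pdgfra, a receptor of mesenchymal cells, had 21.9, 16, 13.8 and 14.4 CPM in EPS libraries 1 to 4 and 8.78, 5.68, 8.34 and 9.89 CPM in control libraries 1 to 4, without overlap (edgeR adjusted p = 0.0542, and 0.0141 with the block). Summed levels of undifferentiated myoblast markers were 218 to 440 CPM in EPS and 381 to 604 CPM in control libraries. All 4 were tested, with 0 past the threshold by edgeR, 1 at an unadjusted p under 0.05, 1 past it by DESeq2, 0 by limma and 1 with the block. Myod1 had 51.5, 39.9, 92.4 and 87.2 CPM in EPS libraries 1 to 4 and 181, 99.4, 172 and 153 CPM in control libraries 1 to 4. Its log2 fold change was -1.19 (edgeR adjusted p = 0.0525, and 0.00262 with the block). Adipocyte markers summed to at most 0.561 CPM in EPS and 0.157 CPM in control libraries. The part of these marker differences in the results below was not tested.

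Among the 10 genes, per unit of transcript length, COX-1 and prostacyclin synthase ranked highest in control myotubes, and COX-2 and COX-1 ranked highest in EPS myotubes. Levels in this paragraph are FPKM, the deposited values per kilobase and M fragments, as mean ± SD over 4 libraries. In EPS libraries Ptgs2 (58.2 ± 39.5) and Ptgs1 (57.9 ± 7.27) were followed by Ptgr1 (31.9 ± 4.91) and Ptgis (18.3 ± 3.82). Next came Ptger4 (11.9 ± 6.41), Pla2g4a (7.28 ± 0.967), Ptgds (5.25 ± 2.98) and Ptges2 (3.22 ± 1.08). In control libraries the order was Ptgs1 (29.3 ± 6.96), Ptgis (27.5 ± 5.66), Ptgr1 (11.1 ± 1.61) and Ptgs2 (8.95 ± 1.09). Ptgds (7.95 ± 5.97), Ptges2 (3.73 ± 0.47), Ptger4 (3.53 ± 0.901) and Pla2g4a (3.45 ± 0.509) came after them. Neighbours in these orders often overlapped: in control libraries the ranges of Ptgs1 and Ptgis overlapped, as did those of Ptgr1, Ptgs2 and Ptgds, and those of Ptges2, Ptger4 and Pla2g4a. In EPS libraries the range of Ptgs2 (27.2 to 111) covered all values of Ptgs1 and Ptgr1, and the ranges of Ptgis and Ptger4 overlapped. Hpgd and Ptges were lowest in both groups, with 0.218 ± 0.138 and 0.189 ± 0.0314 in EPS and 0.309 ± 0.265 and 0.0364 ± 0.0358 in control libraries.

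Among the 8 members that passed the filter, 5 were past an adjusted p of 0.05 in edgeR's quasi-likelihood test, all higher in EPS, and 3 were not. Over all 13987 genes tested, 3.06% were past it, 2.3% higher and 0.758% lower in EPS. With the replicate number as a block, 5 members were past it as higher and 1 as lower. In that fit 12.1% of all genes were past the threshold, 7.31% higher and 4.78% lower in EPS. Since the members were chosen with this contrast known, their count is not evidence about the pathway. In RNA from whole cultures, fewer cells of a type and less RNA per cell cannot be told apart.

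**Figure D1:**
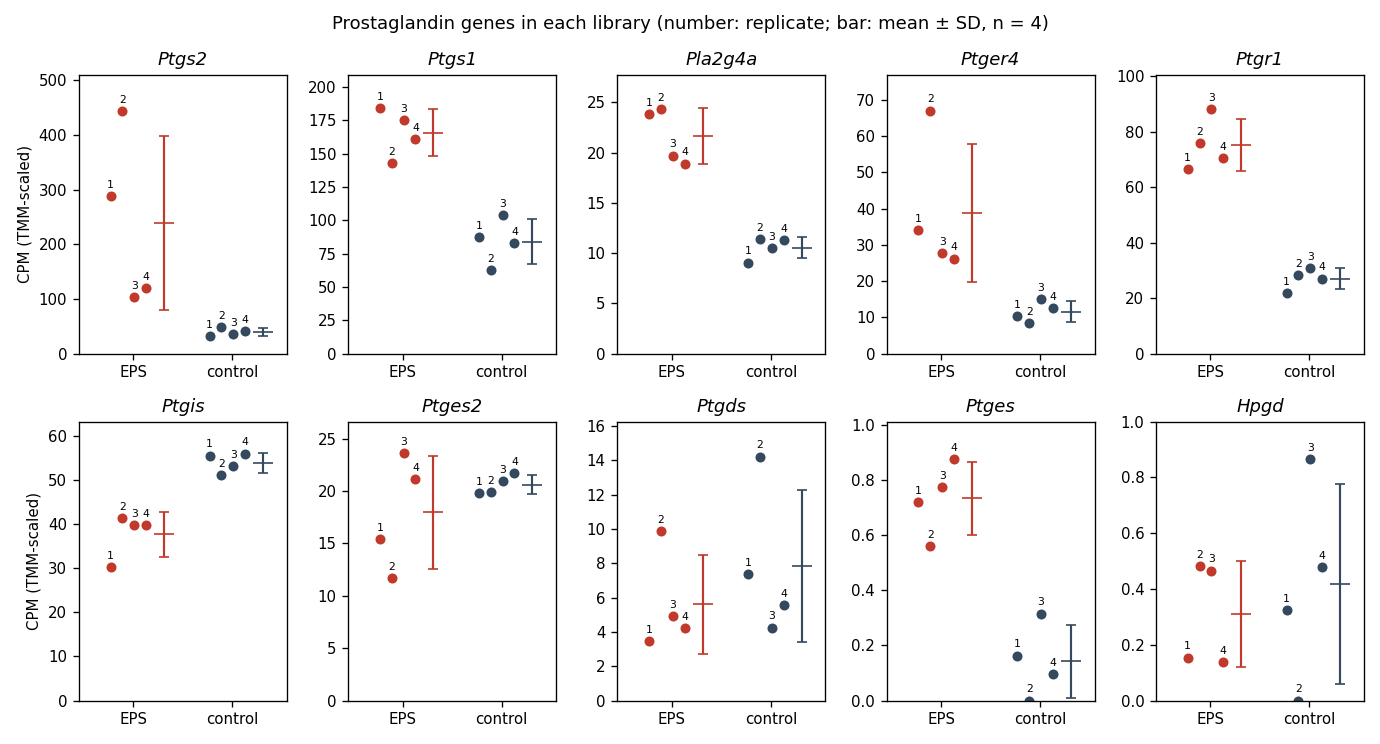
Level of each of the 10 genes in each library, in CPM after TMM scaling, with EPS left of control. Points are libraries with their replicate number, and bars are mean ± SD (n = 4). Ptgs2, Ptgs1, Pla2g4a, Ptger4, Ptgr1 and Ptges lie higher in all 4 EPS libraries than in any control library, Ptgis lies lower, and Ptges2, Ptgds and Hpgd overlap.

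Pla2g4a encodes cytosolic phospholipase A2 alpha, which releases arachidonate from membrane phospholipids in response to calcium. It stood at 23.8, 24.3, 19.7 and 18.9 CPM in EPS libraries 1 to 4 and at 9.05, 11.4, 10.5 and 11.3 CPM in control libraries 1 to 4. All 4 EPS libraries lay above all 4 control libraries. The fitted log2 fold change was 1.06 (SE 0.18), a 2.09-fold higher level. The gene (ENSMUSG00000056220) occupies positions 149829618 to 149961290 of chromosome 1 (mm10, minus strand).

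Ptgs2 encodes COX-2, the inducible cyclooxygenase and the classical immediate-early gene of the pathway. It reached 288, 443, 104 and 120 CPM in EPS libraries 1 to 4, against 31.9, 48.3, 35.3 and 41.3 CPM in control libraries 1 to 4. All EPS libraries lay above the control libraries, and EPS replicates 1 and 2 stood well above replicates 3 and 4. The mean was 239 CPM ± 160 in EPS and 39.2 CPM ± 7.21 in control (SD, n = 4 each). The fitted log2 fold change was 2.66 (SE 0.45), or 6.32-fold.

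The size of the Ptgs2 difference varied between libraries of the same group. The ratio of EPS to control libraries with the same number was 9.05, 9.17, 2.94 and 2.9 for numbers 1 to 4. The fitted difference was 9.72-fold in replicates 1 and 2 alone and 2.9-fold in replicates 3 and 4 alone, and 4.76-fold with the replicate block. Only 17 fragments underlie the value of control replicate 2. Ptgs2 (ENSMUSG00000032487) lies on chromosome 1, positions 150100031 to 150108227, on the plus strand, near Pla2g4a.

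Some other readouts, such as Cd68 and Pecam1, were also highest in EPS replicates 1 and 2. These 2 libraries stood apart over all genes on the second principal component. Summed macrophage and leukocyte markers were at 14.7, 32.3, 9.62 and 8.73 CPM in EPS libraries 1 to 4 and at 5.26 to 8.52 CPM in control libraries. Of the 6 markers 3 were tested, with 0 past the threshold by edgeR, DESeq2 or limma, 1 at an unadjusted p under 0.05 and 2 with the replicate block. Those 2 went opposite ways, Cd14 higher and Itgam lower in EPS. Adgre1 had no fragment in any library, and Ptprc reached at most 0.309 CPM in EPS and 0 CPM in control libraries. Csf1r had 1.18, 0.401, 0.569 and 0.508 CPM in EPS libraries 1 to 4 and 0 to 0.433 CPM in control libraries. It was lowest in the EPS library where Ptgs2 was highest. Itgam had 0.259 to 2.09 CPM in EPS and 0 to 2 CPM in control libraries. Its log2 fold change was -0.91 (edgeR adjusted p = 0.528), and -1.76 (edgeR adjusted p = 0.0426) with the block. Cd14, a co-receptor for lipopolysaccharide, had 4.84, 2.57, 6.73 and 5.68 CPM in EPS libraries 1 to 4 and 2.87, 0, 3.94 and 2.39 CPM in control libraries 1 to 4 (edgeR adjusted p = 0.331, and 0.0351 with the replicate block). Its values did not follow those of Ptgs2 among the EPS libraries. In EPS replicates 1 and 2 most of the sum was Cd68, a lysosomal protein, which had 8.08, 27, 2.07 and 2.12 CPM in EPS libraries. Cd68 did not pass (edgeR adjusted p = 0.172, and 0.0708 with the block). The summed level of the 4 endothelial markers was 1.14 to 14.8 CPM in EPS and 0 to 1.26 CPM in control libraries, with the highest value again in EPS replicate 2. Most of that value was Pecam1, which had 2.16, 10.8, 0.155 and 0.0462 CPM in EPS libraries 1 to 4. Only 1 of the 4 was tested, Tek, and it did not pass (edgeR adjusted p = 0.648). Without the filter on low counts 1 was past the threshold, Kdr (edgeR adjusted p = 0.0399), with 0.138 to 2.17 CPM in EPS and 0 CPM in control libraries. The part of these markers in the Ptgs2 difference was not tested.

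Ptgs1 encodes COX-1, usually regarded as the constitutive cyclooxygenase. It stood at 184, 143, 175 and 161 CPM in EPS libraries 1 to 4 and at 87.2, 62.5, 104 and 82.7 CPM in control libraries 1 to 4. The groups did not overlap, and unlike Ptgs2 the EPS libraries were close to each other. The fitted log2 fold change was 0.94 (SE 0.17), or 1.92-fold. It was 2.07-fold in replicates 1 and 2 alone and 1.8-fold in replicates 3 and 4 alone. Ptgs1 (ENSMUSG00000047250) lies on chromosome 2, positions 36230426 to 36252272, on the plus strand.

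Because both cyclooxygenases were higher in EPS, their balance was read within each library on the FPKM scale. Ptgs2 made up 52.7%, 67.9%, 28.8% and 35.2% of the summed FPKM of Ptgs1 and Ptgs2 in EPS libraries 1 to 4. In control libraries 1 to 4 it made up 21.5%, 27.1%, 19% and 27.8%. The EPS shares lay above the control shares, by a narrow margin for EPS replicate 3, and Ptgs2 exceeded Ptgs1 in EPS replicates 1 and 2 only. The sum of both genes was 116 FPKM ± 36.9 in EPS and 38.3 FPKM ± 7.18 in control (SD, n = 4 each).

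**Figure D2:**
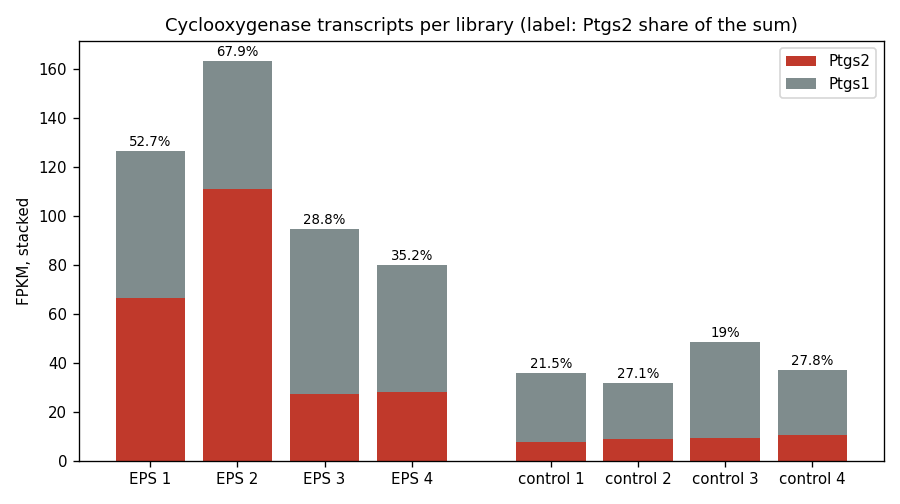
Ptgs2 and Ptgs1 in FPKM, stacked, for each EPS library and then each control library, with the share of Ptgs2 in the sum above each bar. The sum is 80.1 to 163 FPKM in EPS and 31.8 to 48.5 FPKM in control libraries, and the Ptgs2 share is highest in EPS replicates 1 and 2.

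The upstream sequences of both cyclooxygenase genes are shown because they are the inducible and the constitutive gene of 1 reaction and were both higher in EPS. They are the 250 bases before the RefSeq start (GRCm38.p6, the same genome build), chr1:150099781-150100030 on the plus strand for Ptgs2 and chr2:36230176-36230425 on the plus strand for Ptgs1. Capitals mark matches to the motifs named below.
Ptgs2 upstream: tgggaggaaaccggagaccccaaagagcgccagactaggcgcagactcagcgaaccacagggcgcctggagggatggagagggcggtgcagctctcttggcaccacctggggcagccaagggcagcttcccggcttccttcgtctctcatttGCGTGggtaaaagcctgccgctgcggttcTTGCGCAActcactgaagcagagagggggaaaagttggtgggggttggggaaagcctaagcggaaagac
Ptgs1 upstream: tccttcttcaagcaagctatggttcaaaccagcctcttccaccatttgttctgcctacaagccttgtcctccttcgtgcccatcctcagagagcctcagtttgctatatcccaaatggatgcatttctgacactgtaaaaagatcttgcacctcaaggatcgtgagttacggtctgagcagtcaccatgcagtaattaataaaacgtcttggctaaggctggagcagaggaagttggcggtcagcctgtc

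The search covered 300-base windows (250 bases before to 50 after the start) on both strands. The motifs were the antioxidant response element core TGACNNNGC, AP-1 TGANTCA, the cAMP response element half-site CGTCA, the C/EBP palindrome TTGCGCAA, NF-kB (GGGA and CC, 4 bases apart), the heat shock element (GAA, TTC and GAA, each 2 bases apart), the xenobiotic response element core GCGTG and the TATA box TATAAA. Overlaps between motifs were allowed, and the C/EBP palindrome was added after the Ptgs2 window had been read. The Ptgs2 window held that palindrome at -69 to -62, which 0.183% of all 32851 windows hold. It also held the xenobiotic core at -98 to -94 (32.4% of windows). A cAMP half-site (20.8% of windows) lay at 14 to 18 after the RefSeq start, shown in capitals in the 29 bases of chr1:150100032-150100060, plus strand.
Ptgs2 half-site: gagtcaccactaCGTCAcgtggagtccgc
The windows of Ptgs1, Ptger4 and Ptgr1 held none of the 8 motifs. Of all windows 12.4% hold the antioxidant core, 7.81% AP-1, 20.7% NF-kB, 0.603% the heat shock element and 13.6% the TATA box. The xenobiotic core also lay in the windows of Pla2g4a at its first listed start, Ptges, Ptges2 and Hpgd. Ptgds held AP-1, and Hpgd and the second listed start of Pla2g4a held the TATA box. Ptgis was not among the windows searched. A match is a description of the letters and not of a bound site.

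Ptgis, Ptges2 and Ptgds, the terminal synthases that passed the filter, had negative log2 fold changes, those of Ptges2 and Ptgds smaller than their SE. Ptges, which did not pass the filter, lay higher in EPS. Ptgis encodes prostacyclin synthase, and it had the lowest fold change of the 8 members that passed the filter. It stood at 30.2, 41.3, 39.7 and 39.7 CPM in EPS libraries 1 to 4 and at 55.5, 51.1, 53.1 and 56 CPM in control libraries 1 to 4. Every EPS library lay below every control library. Over all tested genes, 4.83% had EPS libraries entirely below control libraries and 9.32% entirely above. The log2 fold change was -0.53 (SE 0.15), and -0.56 (SE 0.13) with the replicate block. Ptgis (ENSMUSG00000017969) lies on chromosome 2, positions 167191805 to 167240604, on the minus strand. It overlaps 1110018N20Rik on the opposite strand, which had 0.501 CPM in EPS and 0.757 CPM in control libraries on average.

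Ptges encodes microsomal prostaglandin E synthase 1, the inducible enzyme that often works with COX-2. It was barely detected, with 14, 7, 15 and 19 fragments in EPS libraries 1 to 4 and 3, 0, 4 and 2 fragments in control libraries 1 to 4. These counts are 0.721, 0.561, 0.776 and 0.877 CPM in EPS and 0.163, 0, 0.315 and 0.0956 CPM in control libraries. EPS libraries lay above the control libraries, but the 0 of control replicate 2 allows up to 8.52 CPM, so that library adds nothing to the contrast. The gene did not pass the count filter with all 8 libraries. It did in some fits of fewer libraries, such as the one without control replicate 2 (log2 fold change 2.00, SE 0.51). Those fits rest on the same few fragments.

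Ptges2, a membrane-associated prostaglandin E synthase, was about level. Its values were 15.4, 11.7, 23.6 and 21.1 CPM in EPS libraries 1 to 4 and 19.8, 19.9, 20.9 and 21.7 CPM in control libraries 1 to 4. The groups overlapped, and EPS replicates 1 and 2 were lower than every other library. Ptgds, the lipocalin-type prostaglandin D synthase, had 3.45, 9.86, 4.92 and 4.2 CPM in EPS and 7.37, 14.2, 4.25 and 5.54 CPM in control libraries 1 to 4. These groups overlapped too, and the highest control value rests on 5 fragments in the shallow library. The log2 fold changes were -0.20 (SE 0.23) for Ptges2 and -0.18 (SE 0.41) for Ptgds.

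Ptger4 encodes EP4, the prostaglandin E2 receptor that raises cyclic AMP. It stood at 34.1, 67, 27.8 and 26.2 CPM in EPS libraries 1 to 4, against 10.4, 8.52, 15 and 12.6 CPM in control libraries 1 to 4. The groups did not overlap, and EPS replicate 2 was the highest, as for Ptgs2. The log2 fold change was 1.65 (SE 0.32), or 3.13-fold. It was 4.89-fold in replicates 1 and 2 alone, 1.97-fold in replicates 3 and 4 alone and 2.49-fold with the replicate block. Ptger4 (ENSMUSG00000039942) lies on chromosome 15, positions 5206661 to 5244187, on the minus strand, and overlaps Ttc33 on the opposite strand. Ttc33 averaged 70.4 CPM in EPS and 66.4 CPM in control (edgeR adjusted p = 0.693), and no source states the strand setting of the counting, so fragments in the overlap cannot be assigned with certainty.

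Breakdown was represented by 1 abundant and 1 nearly absent transcript. Ptgr1 encodes prostaglandin reductase 1, which reduces the double bond of oxidised prostaglandins and of leukotriene B4 metabolites and is a known target of the antioxidant factor NRF2. It stood at 66.5, 75.9, 88 and 70.5 CPM in EPS libraries 1 to 4 and at 21.8, 28.4, 30.9 and 27 CPM in control libraries 1 to 4. The groups were far apart relative to their spread. The log2 fold change was 1.49 (SE 0.17), or 2.81-fold, and the ratios of same-numbered libraries were 3.05, 2.67, 2.85 and 2.61. In replicates 1 and 2 alone it was 2.97-fold and in replicates 3 and 4 alone 2.74-fold. Ptgr1 (ENSMUSG00000028378) lies on chromosome 4, positions 58965439 to 58987119, on the minus strand.

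Hpgd encodes 15-hydroxyprostaglandin dehydrogenase, which carries out the first and rate-limiting step of prostaglandin inactivation, before Ptgr1. It had 3, 6, 9 and 3 fragments in EPS libraries 1 to 4 and 6, 0, 11 and 10 fragments in control libraries 1 to 4. These counts are 0.154, 0.481, 0.466 and 0.138 CPM in EPS and 0.325, 0, 0.866 and 0.478 CPM in control libraries. The groups overlapped, and a difference was not detectable at this depth.

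**Figure D3:**
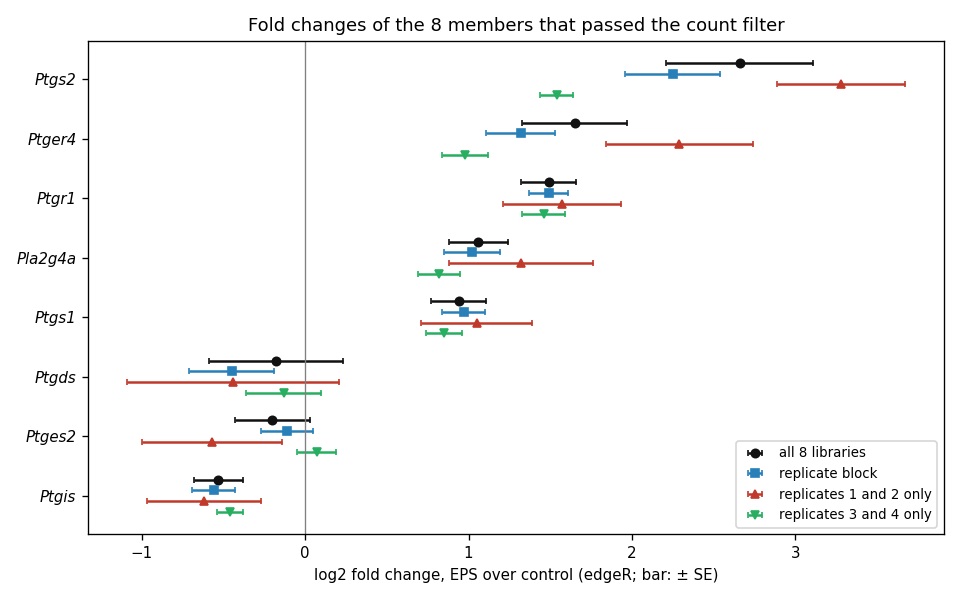
Log2 fold change of EPS over control (± SE, edgeR) for the 8 members that passed the count filter, from all 8 libraries, with the replicate block, and from replicates 1 and 2 or 3 and 4 alone. Ptgs2 and Ptger4 differ most between the sets of replicates (log2 fold changes of 3.28 against 1.54 and 2.29 against 0.98), and Ptgr1 and Ptgs1 differ little.

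The genes closest in pattern to the highest and the lowest member were sought over the 7 deep libraries, among 10171 other tested genes with a mean of at least 5 CPM. For Ptgs2 they included Nepro and Ubqln2, with Pearson correlations of log2 CPM of 0.9972 and 0.9969. Ubqln2, a ubiquitin-binding shuttle protein of the proteasome pathway, had 67.3, 76.9, 41.2 and 41.9 CPM in EPS libraries 1 to 4 and 25.8, 27.2 and 27.5 CPM in control libraries 1, 3 and 4. For Ptgis they were Nptx1, Tmem50b and Inka2, with correlations of 0.9932, 0.9889 and 0.9864. These correlations describe 7 libraries in 2 groups, which also share depth and scaling.

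A wider list of 75 genes for prostanoid and arachidonate metabolism was taken from textbook roles, with earlier results of these data known. Its counts are therefore a description and not evidence about the pathway. Of the 75 genes, 43 were tested, 5 rose and 1 fell in EPS, and 37 did not pass (edgeR, adjusted over all genes). Over all genes tested, 2.3% were higher and 0.758% lower. The median log2 fold change of the 43 genes was -0.09, beside 0.01 over all genes tested. With the replicate block 7 of the 43 were higher and 5 lower, beside 7.31% and 4.78% of all genes.

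Transport held 1 call. Abcc4, the efflux pump MRP4 that exports prostaglandins, cyclic AMP and drug conjugates, rose 7.76-fold (log2 fold change 2.96, SE 0.34, edgeR adjusted p = 0.00227). It had 73.2, 77.2, 37.7 and 32.6 CPM in EPS libraries 1 to 4 and 6.99, 14.2, 6.85 and 6.45 CPM in control libraries 1 to 4. The uptake carrier Slco2a1, which feeds extracellular prostaglandins to Hpgd, did not pass the count filter, and Slco3a1 did not pass the test (log2 fold change -0.28).

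Of 7 tested synthases and prostaglandin-converting reductases, 1 rose. This was Cbr3, a carbonyl reductase of many substrates, with 22.4 CPM ± 3.98 in EPS and 3.19 CPM ± 2.25 in control (SD, n = 4 each; log2 fold change 2.46, SE 0.29, edgeR adjusted p = 0.00229). Control libraries 1 to 4 had 4.82, 0, 4.72 and 3.2 CPM, and the 0 of control replicate 2 allows up to 8.52 CPM. Without that library the log2 fold change of Cbr3 was 2.40 (edgeR adjusted p = 0.00318). In limma on log2(FPKM + 0.1) Cbr3 did not pass (adjusted p = 0.164; 4.61e-11 to 0.164 over all alternatives). Ptges3, the cytosolic prostaglandin E synthase that is also the HSP90 co-chaperone p23, had 131 FPKM ± 68.8 in EPS and 55.3 FPKM ± 3.91 in control (SD, n = 4 each). Its log2 fold change was 1.20 (SE 0.34, edgeR adjusted p = 0.0881, and 0.00566 with the replicate block). Ptges3 was past the threshold by DESeq2, and without the filter on low counts (edgeR adjusted p = 0.0443). Cbr2, another carbonyl reductase, had a fold change of -0.76 on the log2 scale (edgeR adjusted p = 0.341), and -0.67 (adjusted p = 0.012) with the block. Hpgds, the hematopoietic prostaglandin D synthase, had no fragment in any library, and thromboxane synthase Tbxas1 was detected in EPS replicate 2 only.

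Of 8 genes listed for breakdown, 6 were tested and 1 rose. Zadh2, which encodes prostaglandin reductase 3, had 13.2 CPM ± 2.75 in EPS and 4.53 CPM ± 1.59 in control (SD, n = 4 each; log2 fold change 1.63, SE 0.30, edgeR adjusted p = 0.0197). It was no longer past the threshold without EPS replicate 1 (0.0757), control replicate 1 (0.0882) or control replicate 3 (0.115), or in limma on log2(FPKM + 0.1) (0.0672). The log2 fold change in these fits was 1.42 to 1.57. Ptgr2, which reduces the same oxidised prostaglandins, did not pass (log2 fold change -0.14, SE 0.20).

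Apart from Ptger4, 9 receptor genes were listed. Of these 4 were tested, 0 were past an adjusted p of 0.05 by edgeR, DESeq2 or limma, 1 was at an unadjusted p under 0.05, and 1 was past it with the replicate block. That gene was Ptgir, the prostacyclin receptor, with 1.34, 2.97, 1.4 and 1.75 CPM in EPS libraries and 0.271, 0, 0.551 and 0.765 CPM in control libraries (log2 fold change 1.81, SE 0.49, edgeR adjusted p = 0.076, and 0.0307 with the block). Per length, Ptger4 (11.9 FPKM in EPS and 3.53 FPKM in control) lay above the other prostanoid receptors, of which Ptger1 had the highest EPS mean at 0.769 FPKM ± 0.464 in EPS and 0.333 FPKM ± 0.235 in control (SD, n = 4 each). Control replicate 2 held 0 fragments of Ptgir and of Ptger1, which allows up to 8.52 CPM. Ptgfrn, a membrane protein that binds the prostaglandin F receptor, was abundant at 365 CPM ± 108 in EPS and 472 CPM ± 109 in control and did not pass (edgeR adjusted p = 0.472).

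Apart from Pla2g4a, 21 genes of arachidonate release were listed. Of these 11 were tested and 0 were past the threshold by edgeR, DESeq2 or limma, with 1 at an unadjusted p under 0.05 and 1 with the replicate block. That gene was Mgll, monoacylglycerol lipase, with a log2 fold change of -1.07 (SE 0.47, edgeR adjusted p = 0.253, and 0.00541 with the block). Anxa1, an inhibitor of phospholipase A2, had 203 CPM ± 45.6 in EPS and 285 CPM ± 126 in control (SD, n = 4 each; edgeR adjusted p = 0.452).

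The opposite reaction, return of arachidonate to phospholipids, held the 1 decrease called in the main edgeR fit. Lpcat3, which inserts polyunsaturated chains into lysophospholipids, had 60.2, 54.8, 60.9 and 61.4 CPM in EPS libraries 1 to 4 and 94.9, 76.7, 106 and 86.5 CPM in control libraries 1 to 4. It fell by 0.64 on the log2 scale (SE 0.14, edgeR adjusted p = 0.0414). The call was lost when any 1 library other than control replicate 2 was left out, with a highest adjusted p of 0.178. It was also lost in limma on log2(FPKM + 0.1) and log2(FPKM + 1) (adjusted p = 0.0805 and 0.0816). Without the filter on low counts the edgeR adjusted p was 0.0521. With the replicate block 2 of the 6 genes were lower, Lpcat3 and the acyl-CoA synthetase Acsl3 (log2 fold change -0.58, edgeR adjusted p = 0.233 without the block, and -0.53, adjusted p = 0.0415 with it). Lpcat3 overlaps Emg1 on the opposite strand (edgeR adjusted p = 0.698).

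Of 7 tested genes of the lipoxygenase and epoxygenase branches, 2 rose. Cyp1b1, a cytochrome P450 that oxidises arachidonate among other substrates and is a classical target of the aryl hydrocarbon receptor, had 274 CPM ± 78.9 in EPS and 68.9 CPM ± 13.5 in control (SD, n = 4 each; log2 fold change 2.04, SE 0.24, edgeR adjusted p = 0.00229). Ephx1, the microsomal epoxide hydrolase, had 249 CPM ± 18.9 in EPS and 97.1 CPM ± 27.8 in control (SD, n = 4 each; log2 fold change 1.41, SE 0.20, edgeR adjusted p = 0.00485). Ephx1 did not pass in limma on log2(FPKM + 0.1) and log2(FPKM + 1) (adjusted p = 0.0672 and 0.0532) and in replicates 1 and 2 alone (0.053).

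**Figure D4:**
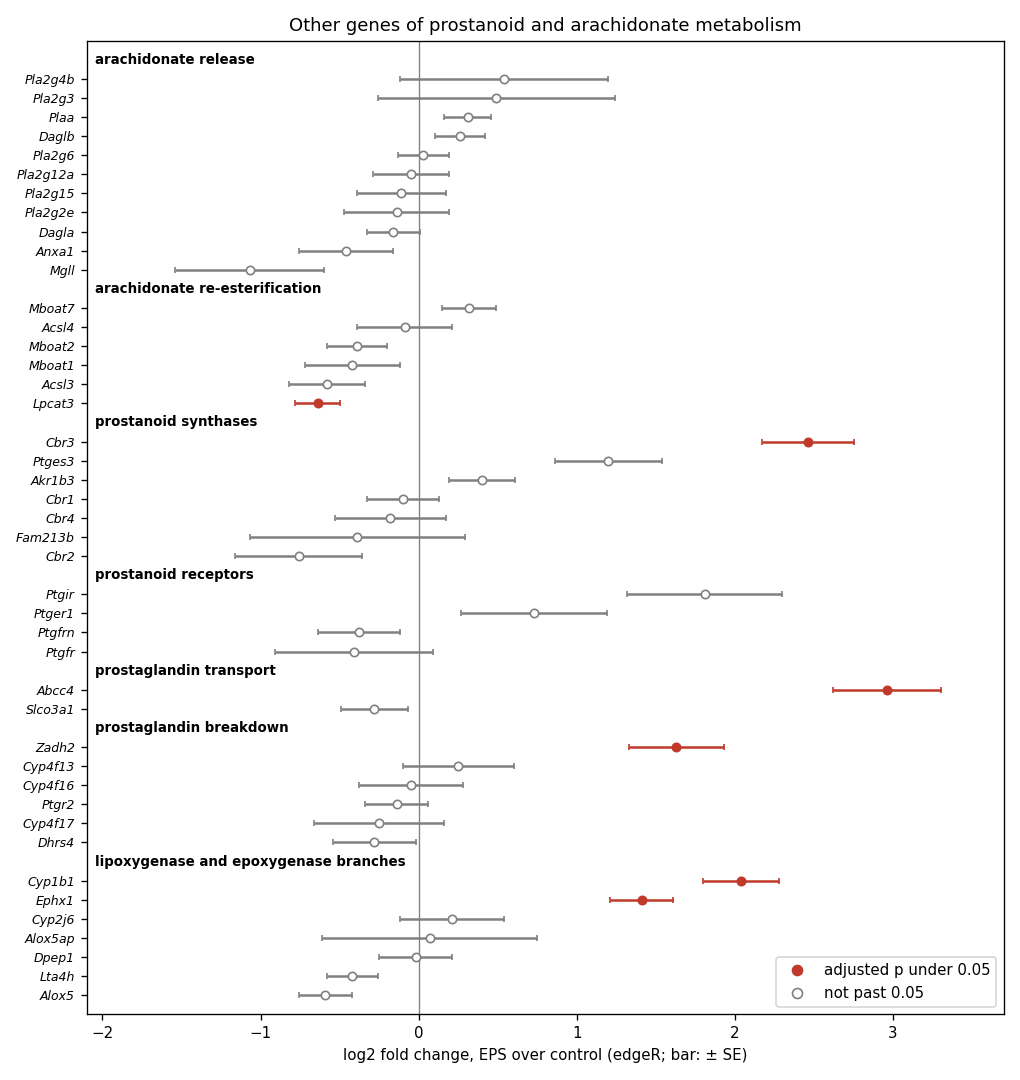
Log2 fold change of EPS over control (± SE, edgeR) for the 43 tested genes of the wider list, grouped by role. Filled points passed an adjusted p of 0.05: Abcc4, Cbr3, Cyp1b1, Zadh2 and Ephx1 were higher and Lpcat3 was lower.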

How the data were processed

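RNA of 4 EPS and 4 control C2C12 libraries was sequenced after a stranded total RNA kit, per the labels' protocols. STAR 2.5.1, Cufflinks and Cuffdiff 2.2.1, with the mm10 build, are named in the submitters' processing notes. Cuffdiff wrote the deposited values, per the file headers: estimated counts (fragments, not scaled) and FPKM (scaled in the authors' Cuffdiff run) of each gene in each library. No source used here gives the annotation release or strand setting. The estimated counts were rounded; 93.3% of those above 0 were exactly whole. The 46 genes that the table marks as skipped in at least 1 library (too many fragments) were left out. Symbols and positions came from GENCODE M21, and Prxl2b, Akr1b1 and Ptgr3 were matched as Fam213b, Akr1b3 and Zadh2.

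Genes were filtered with filterByExpr (minimum count 10, minimum total 15), scaled by TMM and tested with edgeR 4.0.16 (R 4.3.3) by the quasi-likelihood test without covariates, Benjamini-Hochberg adjusted over 13987 genes, with a threshold of 0.05. SE is the log2 fold change divided by the root of F, an approximation. Fold changes are fitted and need not equal ratios of mean CPM. The test was checked on simulated counts. Alternatives were DESeq2 1.42.0, limma 3.58.1 on log2 FPKM with a pseudocount of 0.1 or 1, another scaling, no filter, the replicate block and each library left out. After values were seen, fits of replicates 1 and 2, of replicates 3 and 4, and of the block without pair 2 were added. Same-numbered EPS and control libraries deviated together from their group means (correlations 0.214 to 0.3 across genes in all 4 pairs). The block fits and the ratios of same-numbered libraries treat the numbers as pairs, and the main fit does not. The labels do not say what a number marks. Differently numbered libraries correlated at -0.289 to 0.253, the highest between numbers 3 and 4. The fit without the block stayed the main one, and blocked values or counts stand beside results whose call they change.

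The members and all lists were chosen with earlier results of these data known. Named genes are all members; in each list the genes past the threshold or, with none, the most abundant; and the 3 genes nearest in pattern to the highest and lowest member, of which 1 is not reported here. Ptgr2, Acsl3, Cbr2, Ptges3, Ptgir, Ptger1, Mgll, Hpgds, Tbxas1, Slco2a1, Slco3a1, Alox5, Lta4h and Alox5ap were named after their values were seen.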

Additional observations from a re-analysis of the deposited data

Results flagged for a closer look

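In 36 sets of 4 libraries (18 named genes in EPS and in control), 2 held a library far from the other 3, and chance alone flags about 1 in 20 such sets. Ptgis in EPS replicate 1 was at 30.2 CPM, with the other EPS libraries at 41.3, 39.7 and 39.7 CPM. Abcc4 in control replicate 2, the shallow library, was at 14.2 CPM, with the other control libraries at 6.99, 6.85 and 6.45 CPM.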

How the results depend on the processing

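Of the members, 5 were higher and 0 lower past the threshold with all libraries. Over all genes tested in that fit, 2.3% were higher and 0.758% lower. The member counts were 5 and 1 with the replicate block, beside 7.31% and 4.78% of all genes. They were 6 and 1 with the block without pair 2, where Ptges was also tested, and 3 and 0 in both limma fits. Replicates 3 and 4 alone gave 5 and 1, and replicates 1 and 2 alone gave 3 and 0. With 1 library left out they were 1 to 5 higher and 0 lower: 2 without EPS replicate 1 and 1, 2 and 1 without control replicate 1, 3 or 4. Counts over all genes in these fits are given below. The members were chosen with this contrast known, so their counts in any fit are not evidence about the pathway.

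Of the wider list, 5 were higher and 1 lower. These were 7 and 5 with the replicate block, 8 and 6 with the block without pair 2, 6 and 2 by DESeq2, 6 and 0 without the filter, and 2 and 0 or 4 and 0 by limma with a pseudocount of 0.1 or 1. Replicates 3 and 4 alone gave 7 and 7, and replicates 1 and 2 alone gave 5 and 0. With 1 library left out they were 4 to 6 higher and 0 to 1 lower. Abcc4 and Cyp1b1 were past the threshold in all 17 alternatives.

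Over all genes, 322 of the 13987 tested were higher and 106 lower in the main fit. The number tested changed with the libraries and the filter used. The replicate block gave 1023 and 668, the block without pair 2 1290 and 1167, replicates 3 and 4 alone 1156 and 1121, replicates 1 and 2 alone 510 and 124, DESeq2 633 and 294, no filter 447 and 162, and limma 94 and 29 or 130 and 48. With 1 library left out they were 92 to 427 higher and 22 to 167 lower. The cause of these shifts was not tested. Depth limits Ptges, Hpgd and every value of control replicate 2.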

Other observations

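In the leukotriene branch 2 enzymes had lower mean values in EPS without passing the main edgeR test. Alox5, the 5-lipoxygenase that starts leukotriene synthesis, had 151, 209, 182 and 209 CPM in EPS libraries 1 to 4 and 273, 335, 255 and 274 CPM in control libraries 1 to 4. All EPS libraries lay below all control libraries, yet the gene did not pass (log2 fold change -0.59, SE 0.17, edgeR adjusted p = 0.0908, and 0.0164 with the replicate block). By DESeq2, Alox5 was past the threshold. Lta4h, which makes leukotriene B4, had a log2 fold change of -0.42 (SE 0.16, edgeR adjusted p = 0.193). Alox5ap, the activating protein that hands arachidonate to Alox5, was at 1.24 to 2.09 CPM in EPS and 0.108 to 2.84 CPM in control libraries.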
